A study of Caenorhabditis elegans with 3 samples.

Results

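Chromatin immunoprecipitation followed by sequencing located the nuclear protein LIN-15B in whole first-stage (L1) larvae of Caenorhabditis elegans. The peaks described here lie between divergent genes, that is, genes whose starts face away from each other on opposite strands. They were selected on measured strength and on position, from the series-wide peak list on the genome build ce11, on the 5 autosomes. A peak was kept if a peak ranked within the top 2000 of a replicate's list by the authors' strength overlapped it by 1 bp or more in at least 2 of the 3 replicates. Its summit also had to lie from 500 bp upstream to 200 bp downstream of transcript starts of protein-coding genes on both strands. The rule found 401 peaks among 30000 in the list, 24320 of them on autosomes.

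All 3 libraries belong to 1 group, and the labels give no control sample. Per the labels, the animals were a mixed-sex population of strain OP184, which carries the unc-119 allele tm4063 and the insertion wgIs184 with a GFP-tagged lin-15B, so every library carries the transgene. Replicates 1 and 2 came from a stock centre and are labelled with a size range of 150 to 350, while the label of replicate 3 gives the Snyder laboratory as source, microtip sonication, and GFP-FLAG as a tag at the C-terminus. For the antibody the label names lin-15B and the sample description a GFP fusion, so which of them the antibody bound is not known here. Labels number the libraries as biological replicates. Peaks come from whole animals, so a peak does not say in which cells the protein lay. The depth of the libraries is unknown, because the lists used hold peaks and no read counts. The nearest opposite starts were in head-to-head order at 399 of the 401 peaks and overlapped at 2, and the peaks belonged to 397 distinct gene pairs.

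LIN-15B belongs to the synMuv B class of genes, which act with the retinoblastoma protein and chromatin repressors to keep vulval and germline gene programmes off in the wrong cells. The worm genome is compact, and neighbouring genes that point away from each other often have to share 1 short stretch of DNA for both promoters. Many worm messages are trans-spliced, so an annotated start can lie downstream of the base where transcription begins. Distances to a start below are distances to the annotated start.

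The sequences under 7 of these peaks are shown first, as examples of the stretch that lies between both genes. Each is the ce11 plus strand between the annotated starts, without any annotated exon, cut to at most 300 bases around the summit where the stretch is longer. Capitals mark the word GAGCGC in either direction and any E2F-like word in either direction. The E2F-like words are TTCCCGC and its variant TTCGCGC, together with the word TTGCCGC and its variant TTGGCGC. The words may overlap each other. The first 3 belong to peaks among the 12 with the best mean rank. The stretch of rpl-20 and Y17G9B.5 is chrIV:4749918-4750217 with the summit at base 150. The stretch of rpl-12 and lin-54 is chrIV:13240652-13240951 with the summit at base 32, and that of Y71H2AM.20 and cox-6B is chrIII:2785949-2786199 with the summit at base 95.

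rpl-20 and Y17G9B.5: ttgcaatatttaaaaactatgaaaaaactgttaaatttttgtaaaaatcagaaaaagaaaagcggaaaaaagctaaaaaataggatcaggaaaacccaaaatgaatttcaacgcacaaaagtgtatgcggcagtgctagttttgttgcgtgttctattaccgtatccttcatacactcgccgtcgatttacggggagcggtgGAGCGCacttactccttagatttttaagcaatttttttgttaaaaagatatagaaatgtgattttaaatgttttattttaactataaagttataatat

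rpl-12 and lin-54: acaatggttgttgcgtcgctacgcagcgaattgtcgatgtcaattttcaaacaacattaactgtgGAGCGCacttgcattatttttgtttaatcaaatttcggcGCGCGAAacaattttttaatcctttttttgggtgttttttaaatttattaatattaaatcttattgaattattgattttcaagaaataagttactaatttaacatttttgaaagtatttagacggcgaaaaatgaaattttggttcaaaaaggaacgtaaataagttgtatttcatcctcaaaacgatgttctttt

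Y71H2AM.20 and cox-6B: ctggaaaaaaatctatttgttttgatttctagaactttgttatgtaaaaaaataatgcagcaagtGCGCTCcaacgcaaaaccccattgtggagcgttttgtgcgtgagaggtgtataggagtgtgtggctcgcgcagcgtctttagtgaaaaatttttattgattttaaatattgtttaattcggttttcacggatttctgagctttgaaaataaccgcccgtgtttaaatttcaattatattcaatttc

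The other four show pairs in which both genes stood on a gene list. They are rpl-28 and mrpl-49 (chrV:12728308-12728607, summit at base 150), npp-3 and top-2 (chrII:11874789-11875088, summit at base 88), orc-5 and cyb-1 (chrIV:10734589-10734888, summit at base 129) and rps-14 and rpl-36 (chrIII:7179706-7180005, summit at base 150). The last of these holds none of the words.

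rpl-28 and mrpl-49: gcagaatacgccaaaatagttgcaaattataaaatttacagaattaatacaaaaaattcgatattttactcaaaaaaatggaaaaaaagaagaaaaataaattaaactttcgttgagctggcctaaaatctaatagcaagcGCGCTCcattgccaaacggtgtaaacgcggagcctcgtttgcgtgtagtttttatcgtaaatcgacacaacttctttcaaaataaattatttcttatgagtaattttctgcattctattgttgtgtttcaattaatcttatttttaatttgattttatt

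npp-3 and top-2: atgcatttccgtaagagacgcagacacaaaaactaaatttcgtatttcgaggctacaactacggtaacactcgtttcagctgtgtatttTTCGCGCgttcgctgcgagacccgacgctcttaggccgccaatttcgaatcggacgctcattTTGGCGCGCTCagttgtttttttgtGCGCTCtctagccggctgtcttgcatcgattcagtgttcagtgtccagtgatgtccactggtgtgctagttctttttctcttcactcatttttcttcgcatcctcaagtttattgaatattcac

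orc-5 and cyb-1: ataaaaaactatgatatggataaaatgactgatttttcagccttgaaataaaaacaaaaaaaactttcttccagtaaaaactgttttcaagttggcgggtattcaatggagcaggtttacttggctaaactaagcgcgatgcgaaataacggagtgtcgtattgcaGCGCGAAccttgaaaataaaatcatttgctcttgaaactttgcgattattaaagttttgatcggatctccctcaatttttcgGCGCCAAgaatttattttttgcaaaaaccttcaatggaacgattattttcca

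rps-14 and rpl-36: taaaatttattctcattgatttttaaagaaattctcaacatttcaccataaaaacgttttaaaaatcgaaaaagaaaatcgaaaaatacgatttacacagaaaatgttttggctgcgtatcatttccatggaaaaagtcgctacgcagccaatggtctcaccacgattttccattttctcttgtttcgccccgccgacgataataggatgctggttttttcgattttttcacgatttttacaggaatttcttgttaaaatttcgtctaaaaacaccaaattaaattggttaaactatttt

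Peaks between divergent genes were a large part of the strong autosomal peaks. Of 1448 autosomal peaks that passed the strength rule, 401 lay at promoters on both strands, 732 at promoters on 1 strand only and 315 at no promoter. The divergent peaks were thus 35.4% of the 1133 strong peaks at promoters, whereas they were 12.7% of the 5712 listed autosomal promoter peaks of any strength. Put the other way, 55.4% of the 724 listed peaks at promoters on both strands were strong, against 14.7% of the 4988 at promoters on 1 strand, 1.69% of the 18608 at no promoter and 5.95% of all 24320. Strength entered the rule, so these shares are a description.

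A like order appeared within each replicate's own list, with that replicate's own summits. Rank in these lists and place at starts on both strands are what the rule used, so this too is a description and no separate support. Among autosomal peaks ranked 1 to 100, the share at promoters on both strands in replicates 1, 2 and 3 came to 37.8%, 38.1% and 48%. At ranks 101 to 500 it was 34.9%, 34.2% and 36.0% in the same order, and at ranks 501 to 1000 it was 19.4%, 26.1% and 28.6%. At ranks 1001 to 2000 the replicates parted, with 5.73%, 14.3% and 19.6%. Below rank 5000 the shares were 1.09%, 0.968% and 0.934%. Peaks at promoters on 1 strand thinned out less, from 52.6% ± 5.77 at ranks 1 to 100 to 17.5% ± 0.344 below rank 5000 (SD, n = 3).

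**Figure D1:**
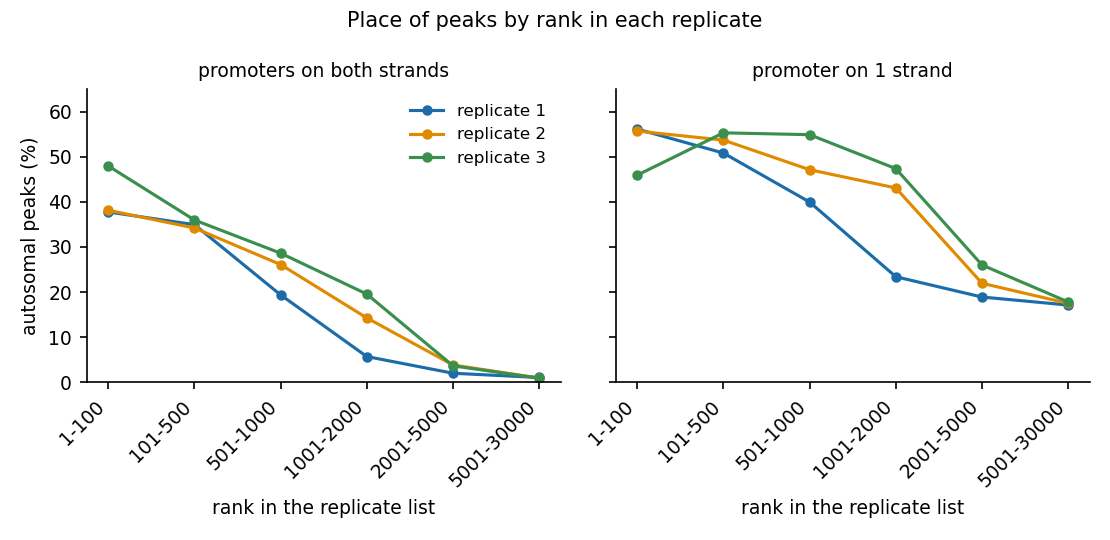
Share of autosomal peaks (%) at promoters on both strands (left) and on 1 strand (right), by rank in the replicate's own list. Rank and place also entered the rule. Points are replicates, and in replicate 1 the divergent share falls to 5.73% at ranks 1001 to 2000, below the 14.3% of replicate 2 and the 19.6% of replicate 3.

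Most of the 401 peaks ranked high in every library. In all, 268 were within the top 2000 of all 3 replicates and 133 within the top 2000 of only a pair of them. Replicate 1 was the one missing for 110 of these 133, replicate 2 for 16 and replicate 3 for 7. In replicate 1, 37 of the 401 had no listed peak at all, against 0 in replicate 2 and 2 in replicate 3. Median ranks in replicates 1, 2 and 3 were 588, 622 and 550, and those of strong peaks at promoters on 1 strand were 676.5, 770.5 and 746. The last peaks inside the rule were those of tsfm-1 and capg-2, ranked 10506, 1988 and 1239 in replicates 1, 2 and 3, and of rec-1 and pif-1, ranked 1984, 11299 and 1411. Just outside were those of smn-1 and klp-16, unlisted in replicate 1 and ranked 1689 and 2031 in the others, and of fbxb-88 and tbck-1, ranked 25846, 2036 and 999.

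Ribosomal protein genes flanked 6 of the 12 peaks with the best mean rank. The peak of Y17G9B.5 and rpl-20, a large-subunit ribosomal protein gene, was at rank 2 in every replicate. Its summits lay 287, 288 and 295 bp from the rpl-20 start and 175, 174 and 167 bp from that of Y17G9B.5, in replicates 1, 2 and 3. The peak between ska-3, whose product is a spindle and kinetochore protein, and rps-12, of the small subunit, ranked 3 in all 3. The peak between rpl-12 and lin-54, which encodes the DNA-binding subunit of the DREAM repressor complex, ranked 5, 4 and 4, and its summits lay 24, 19 and 40 bp from the rpl-12 start. These places differed between replicates by 8, 10 and 21 bp, far less than the distance between the starts (462, 293 and 393 bp).

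The next in order were the peaks of rps-19 and hsr-9, a DNA damage response gene, with ranks of 15, 11 and 10, and the peak shared by C47E8.4 and the chaperone gene hsp-90, with ranks of 11, 17 and 9. The peak of Y71H2AM.20 and cox-6B, a subunit gene of cytochrome oxidase, ranked 16, 19 and 5, so replicate 3 stood apart from the other two. Peaks of ndk-1 and F25H2.6 (ranks 14, 13 and 18) and of rps-20 and ekl-4 (ranks 13, 28 and 8) followed. The ninth to twelfth served rpl-15 and K11H12.8, gpap-1 and scpr-1, C17H12.2 and vha-8, a subunit gene of the proton-pumping vacuolar ATPase, and rab-18, a membrane traffic GTPase gene, and kbp-4, a kinetochore gene. All 12 were in the top 50 of every replicate, with a worst rank of 44.

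A few peaks differed widely between the libraries. The peak of F56B3.11 and ech-5 ranked 28892, 477 and 204 in replicates 1, 2 and 3, that of ppm-1.H and rpl-34 ranked 29859, 885 and 370, and that of nuaf-1 and bir-2 ranked 16476, 379 and 254. In each of them replicate 1 was the low one.

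The next question was where the protein sat between the genes. The starts on either side of a peak were a median of 380 bp apart (quartiles 259 and 531 bp), and the summit lay a median of 122 bp from the nearer start and 259 bp from the farther one. Summits lay between the starts for 374 of 401 peaks (93.3%), and in the replicates' own summits for 90.7% ± 2.21 (SD, n = 3). The rule itself requires the summit to be near both starts. Of the 399 peaks with starts that do not overlap, 171 lay within 50 bp of the midpoint (42.9%). In the middle of 3 equal stretches lay 192 (48.1%), more than an even spread over the stretches would put there. The median distance from the midpoint was 62 bp.

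The place of the summit recurred between libraries. For the 362 peaks listed in all 3 replicates, the summits spanned a median of 26.5 bp, and for 275 of them (76.0%) no more than 50 bp. In 302 of 362 (83.4%) all 3 replicates placed the summit nearer to the same gene. The widest span was 370 bp.

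**Figure D2:**
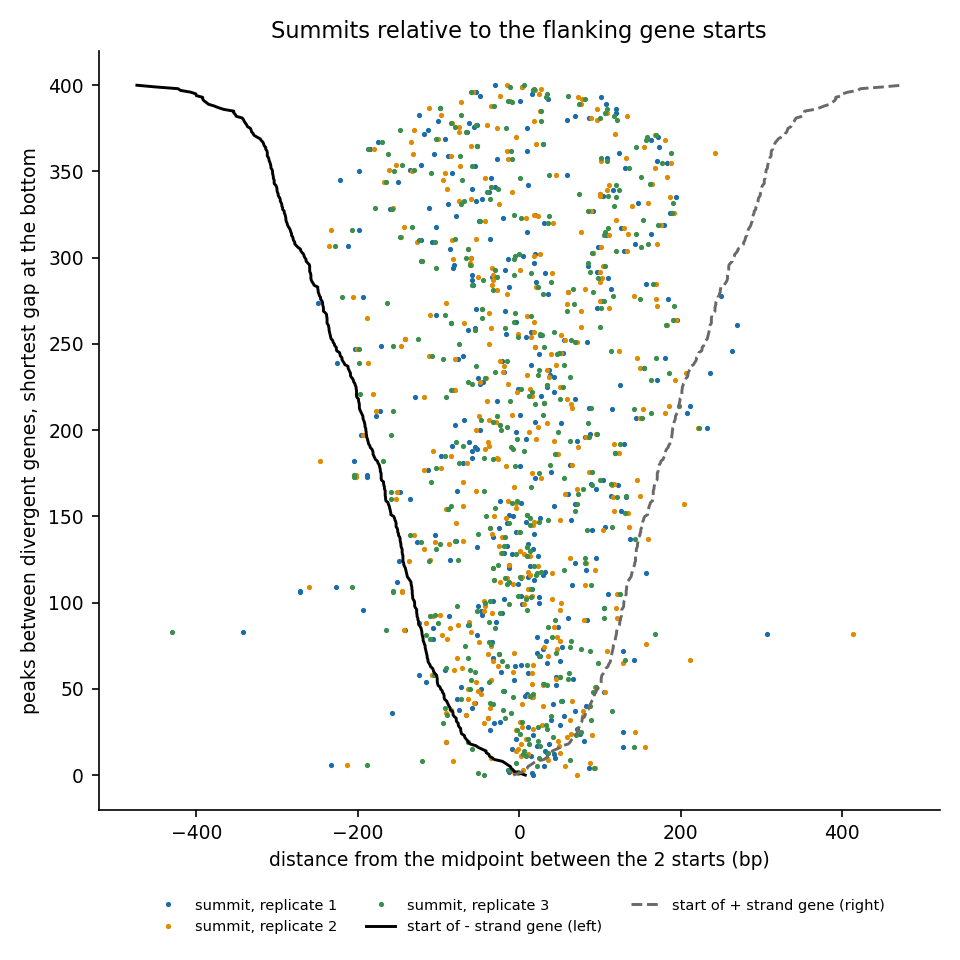
Each row is 1 of the 401 peaks, ordered by the distance between the starts, and the x axis gives the distance in bp from the midpoint between the starts. Lines are the starts and dots the summits of the replicates; 90.7% ± 2.21 (SD, n = 3) of replicate summits lie between the lines.

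As the gap widened, the summit lay farther from both starts. This order is largely fixed, because the distances to the starts add up to the gap when the summit lies between them. The values are a description. Where the starts were up to 200 bp apart (52 peaks), the nearer one was 32.7 ± 4.54 bp from the summit and the farther one 111 ± 5.01 bp. At 201 to 400 bp (167 peaks) these were 89 ± 3.61 and 214 ± 3.61 bp, at 401 to 600 bp (122 peaks) 174 ± 1.32 and 334 ± 3.79 bp, and over 600 bp (60 peaks) 253 ± 3.12 and 438 ± 2.65 bp (medians over peaks, mean ± SD over n = 3 replicates). The shortest gaps belonged to rec-1 and pif-1, and to rpb-7 and Y54E10BR.2, at -15 and -3 bp, where a negative value means that the starts overlap, and to F32D8.14 and F32D8.5, 12 bp apart. The longest were those of snf-6 and mtg-1 (947 bp), sqv-3 and vha-1 (900 bp) and C01F6.14 and fem-3 (845 bp), and the rule leaves little room there for a summit away from the midpoint.

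Against the strong peaks at promoters on 1 strand, the divergent peaks lay nearer to a start. The median distance to the nearer start was 122, 124 and 123 bp in replicates 1, 2 and 3, against 186, 177 and 181 bp for peaks at promoters on 1 strand, a difference of -58.3 ± 5.51 bp (SD, n = 3) seen in 3 of 3 replicates. The exact sign-flip permutation test over the replicates gave p = 0.25, two-sided, the smallest that 3 replicates allow, so no comparison over replicates here can pass 0.05. The divergent distance is the smaller of a pair of distances, which alone makes it shorter. The replicates largely share their peaks and summits, so the SD does not show the spread among peaks.

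Not every divergent pair carried a peak. The annotation held 1771 pairs of neighbouring head-to-head starts no more than 1000 bp apart on autosomes, and 400 of them (22.6%) held at least 1 of the peaks. Of these 400, 367 had 1 listed summit between the starts and 6 had at least 2. The remaining 1371 pairs were wider, with a median of 526 bp against 380 bp for pairs with a peak, and 462 of them (33.7%) had a listed summit between the starts. The share with a peak was 24.2% of 66 pairs up to 100 bp apart and 18.4% of 201 pairs at 101 to 200 bp. It was 33.6%, 36.2% and 33.2% in the 3 classes from 201 to 500 bp, and 27.4% at 501 to 600 bp. Pairs over 700 bp apart had 8.28% or less, and there the rule confines the summit to a narrow middle stretch. By chromosome the share was 34.8% on III, 25.9% on I, 22.2% on IV, 17.5% on II and 15.5% on V.

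**Figure D3:**
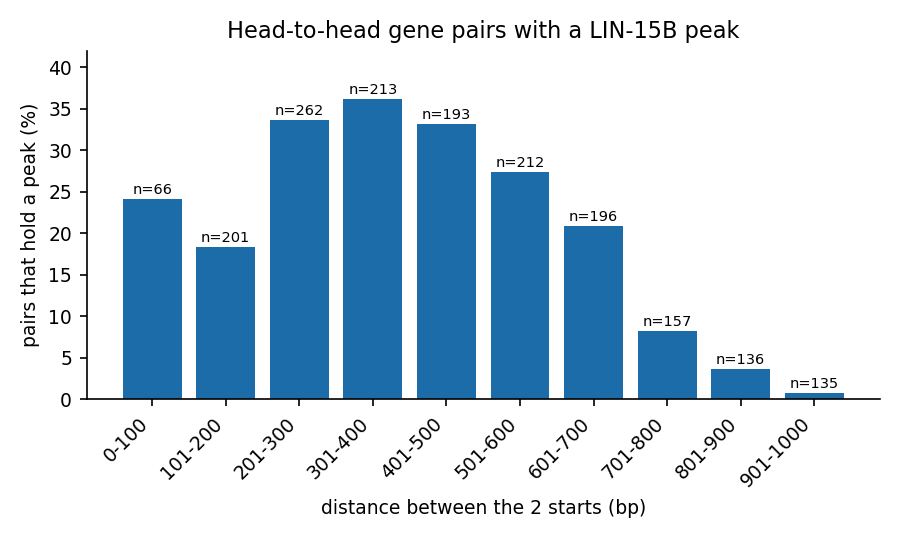
Share (%) of head-to-head pairs of protein-coding genes on autosomes that hold a peak, by the distance between the annotated starts in bp; n is the number of pairs in each class. The share is highest at 301 to 400 bp, 36.2% of 213 pairs.

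In 4 gaps a pair of the peaks stood side by side. Between mtx-1 and dnj-12, a chaperone gene, 1 summit lay 77 bp from dnj-12 (ranks 193, 197 and 300) and the other 23 bp from mtx-1 (ranks 754, 553 and 919). Between F40F11.3 and mig-38 the summits lay outside the gap on either side. Those between snpc-1.1 and spdl-1, and between polk-1 and gpr-1, matched a single peak in each replicate, which therefore counts for both.

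The 401 peaks lay at the promoters of 806 genes, 4.67% of the 17242 autosomal protein-coding genes, and 794 of these genes were among the 3512 genes of head-to-head pairs, where the background share was 22.6%. Counts of the gene lists below are given against the list's own genes in head-to-head pairs, since nearly all the genes with such a peak were in head-to-head pairs. No list was tested for enrichment. The lists are families of gene names, so a listed gene need not act in the process that names its list.

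The lists of protein synthesis differed among themselves. Of 48 cytosolic ribosomal protein genes in head-to-head pairs, 39 had a peak (81.2%), and 22 other ribosomal protein genes had a strong peak at a promoter on 1 strand. The translation factor list had 12 of 24 (50%), led by clu-1, eef-1A.1, an elongation factor gene, and eef-1G. The mitochondrial ribosomal genes had 12 of 27 (44.4%), led by mrpl-49, mrps-7 and mrpl-45, and the aminoacyl-tRNA synthetase genes had 3 of 12 (25%), ears-2, sars-2 and sars-1. The 36 peaks at ribosomal protein genes included 3 that joined genes of the same family: rps-14 with rpl-36, rps-10 with rpl-24.1, and rpl-39 with rps-30. These ranked 159, 235 and 162, then 395, 283 and 311, and 289, 484 and 347 in replicates 1, 2 and 3. With promoters cut to 250 bp upstream and 100 bp downstream, the rule found 189 peaks in all, 6 of them at ribosomal protein genes.

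At ribosomal protein genes the summit lay closer to the partner. Leaving out those 3 peaks, it was a median of 308 ± 9.82 bp from the ribosomal protein gene and 180 ± 6.03 bp from the gene on the other side, a difference of 128 ± 5.0 bp (SD, n = 3, exact sign-flip p = 0.25). The ribosomal protein gene was the nearer one for 8 of 30, 9 of 33 and 11 of 33 peaks in replicates 1, 2 and 3. The chaperone genes had the same order, 293 ± 2.50 bp against 193 ± 2.31 bp (SD, n = 3, exact sign-flip p = 0.25). So did nuclear pore and transport genes, 272 ± 11.5 bp against 162 ± 54.2 bp (SD, n = 3, exact sign-flip p = 0.25). Translation factor genes had it too, 242 ± 35.0 bp against 157 ± 5.11 bp (SD, n = 3, exact sign-flip p = 0.25). At proteasome genes the distances were 158 ± 9.78 and 172 ± 3.69 bp, a difference of -13.5 ± 12.6 bp (SD, n = 3, exact sign-flip p = 0.25). At respiratory chain genes the difference was 2.0 ± 19.2 bp, less than its replicate spread (SD, n = 3, exact sign-flip p = 1.0). At cell cycle genes the median distance was shorter to the listed gene, 134 ± 3.77 bp against 170 ± 13.2 bp (SD, n = 3, exact sign-flip p = 0.25). Yet the listed gene was the nearer one at only 11 of 18, 12 of 19 and 10 of 18 peaks in replicates 1, 2 and 3. Vacuolar ATPase and endosome genes had the same order of medians, 218 ± 4.09 bp against 290 ± 34.4 bp (SD, n = 3, exact sign-flip p = 0.25). There the listed gene was nearer at 5 of 7, 6 of 8 and 4 of 8 peaks. In the other lists measured, differences ran from -34.0 bp (RNA polymerase and general factors) to 58.0 bp (ubiquitin pathway). The replicates largely share their gene pairs and summits. Their agreement was thus largely given in advance, and the SD does not show the spread among gene pairs.

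Chaperone genes had 19 of 35 (54.3%), led by hsp-90, ahsa-1, which encodes an activator of that chaperone, and cct-1, of the cytosolic chaperonin. Proteasome genes had 12 of 21 (57.1%), with rpn-9, rpn-3 and rpt-2 the strongest, and the ubiquitin pathway had 6 of 26 (23.1%), close to the 22.6% of all genes in such pairs, led by ubc-12, the conjugating enzyme gene for the ubiquitin-like protein NEDD8. The peak of hsp-110 and rpn-3 joined a chaperone and a proteasome gene and ranked 82, 137 and 53. Respiratory chain genes had 20 of 33 (60.6%), led by cox-6B and by the ATP synthase subunit genes atp-1 and atp-3. The vacuolar ATPase and endosome list had 8 of 23 (34.8%), led by vha-8, rab-18 and vha-1.

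Genes of DNA replication and the cell cycle had 21 of 35 (60%), led by cdc-6, an origin licensing factor, top-2, the topoisomerase II gene, and the pair orc-5 and cyb-1, of the origin recognition complex and cyclin B. The peak of cdc-6 and acin-1 ranked 152, 79 and 82, that of npp-3, a nuclear pore gene, and top-2 ranked 81, 101 and 139, and that of orc-5 and cyb-1 ranked 136, 135 and 66. Of the 7 synMuv and DREAM genes in head-to-head pairs 6 had a peak (85.7%), lin-54, lin-35, lin-53, epc-1, lin-61 and trr-1. The peak of lin-35, the retinoblastoma gene, was shared with vps-51 (ranks 139, 180 and 102) and that of lin-61, a chromatin reader gene, with bub-1, a spindle checkpoint kinase gene (ranks 706 and 717, unlisted in replicate 3). Splicing genes had 15 of 27 (55.6%), led by syf-2, prp-40 and rsp-3, RNA polymerase and general factor genes 8 of 17 (47.1%), and nuclear pore and transport genes 8 of 21 (38.1%), led by imb-1, npp-3 and npp-14. The RNA interference list, whose names take in ekl-4 and ego-2, had 8 of 24 (33.3%), led by ekl-4, mut-15 and rde-4.

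The remaining lists had 4 or fewer genes with a peak. Of the histone genes, 3 of 61 in head-to-head pairs had a peak (4.92%), htz-1, the gene of the variant H2A.Z, and the pair his-67 and his-68. Histone genes are near-identical copies, and the sources used here do not say how reads that match several copies were placed. The P granule list had 2 of 15 (13.3%), spn-4 and nos-3, and the meiosis list 3 of 25, mre-11, rad-8 and rec-1. Tissue genes had 1 of 18 (neuron, snt-2), 1 of 3 (muscle, cpna-3, too few genes to read a share from), 0 of 13 (intestine) and 4 of 37 (hypodermis and cuticle, col-38, bli-6, col-71 and col-2). Chemoreceptor genes had 2 of 129, sri-5 and srh-16. Some of these share their peak with a gene of another list: snt-2 faces rps-29 and col-38 faces rpl-5.

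**Figure D4:**
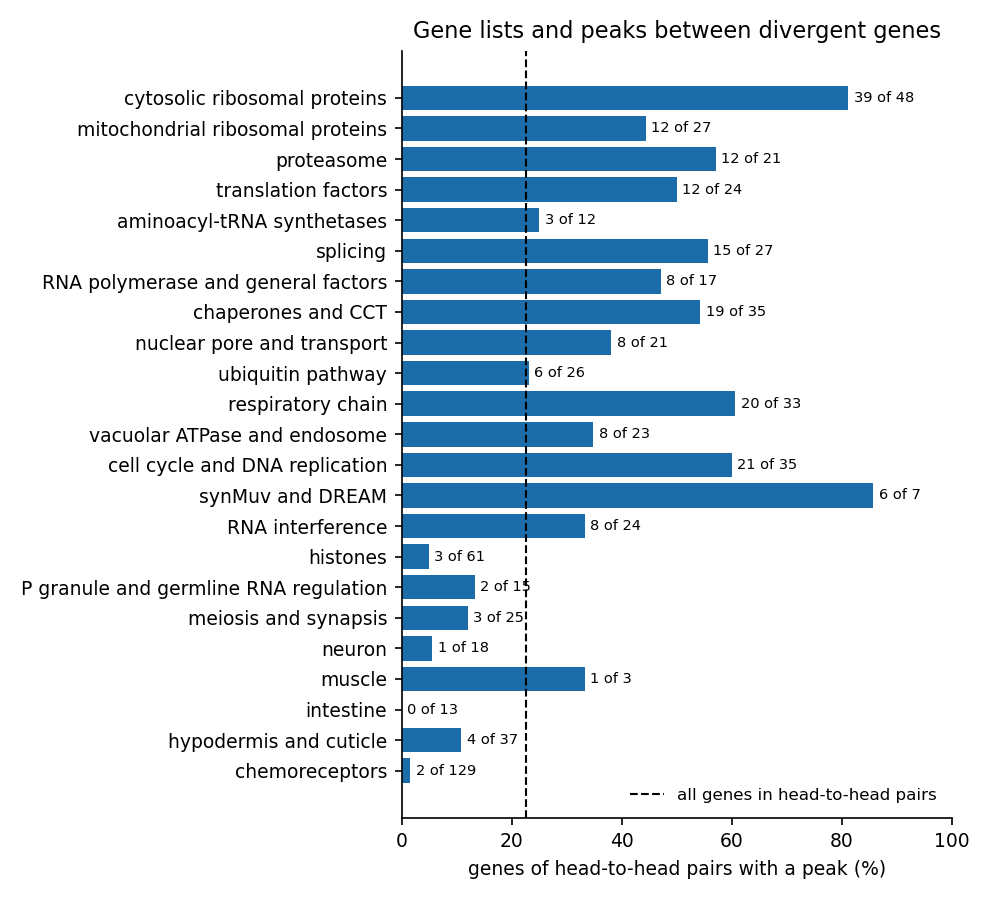
Share (%) of the genes of each list in autosomal head-to-head pairs that have a peak; the labels give the counts and the dashed line marks the 22.6% of all 3512 genes in such pairs. Ribosomal protein genes are at 81.2% (39 of 48) and chemoreceptor genes at 1.55% (2 of 129).

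Of the 401 peaks, 30 had a listed gene on both sides, 154 on 1 side and 217 on neither. Over all autosomes, 2893 of the 17242 protein-coding genes were on a list. Whether listed genes face each other more often than their share would give was not tested, so the pairs below are a description. In 6 of the 30 both genes were on the same list, and besides the ribosomal pairs these were orc-5 and cyb-1, snr-3 and rsp-5, of splicing, and his-67 and his-68. The others joined genes of different lists, for example eef-1A.1 with rfc-4, a replication factor gene, mdf-2, a spindle checkpoint gene, with nduv-3, of the respiratory chain, rde-4, a double-stranded RNA binding protein gene, with cox-14, and iff-1 with cdk-1.

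The last question was what the sequences share, which the rule did not use. In windows of 201 bp on each replicate's own summit, CpG over its expected frequency came to 1.53, 1.55 and 1.54 in replicates 1, 2 and 3, against 1.48, 1.47 and 1.49 at promoters on 1 strand, a difference of 0.0622 ± 0.00898 (SD, n = 3, exact sign-flip p = 0.25). GC content was 38.7% ± 0.231 against 40.5% ± 0.392, a difference of -1.75 ± 0.179 percentage points (SD, n = 3, exact sign-flip p = 0.25). Both directions held in 3 of 3 replicates and exceeded the replicate spread. The replicates' windows cover largely the same bases of the genome, since summits of divergent peaks in all 3 lists spanned a median of 26.5 bp. The SD of these sequence values therefore reflects where summits fell and which peaks were listed, not the spread among peaks. Agreement between the replicates was thus largely given in advance, here and for the words below.

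The word GAGCGC stood in 26.4% ± 0.433 of divergent windows and in 27.9% ± 0.557 of windows at promoters on 1 strand, a difference of -1.40 ± 0.879 percentage points (SD, n = 3, exact sign-flip p = 0.25). The E2F-like words stood in 24.6% ± 0.549 and 24.1% ± 0.599, with a difference of 0.421 ± 0.545 percentage points that was smaller than its replicate spread and held in 2 of 3 replicates (SD, n = 3, exact sign-flip p = 0.5). Of the 401 peaks 30 held both, and in 9 of these a pair of copies overlapped. GAGAGA stood in 20.3%, 21.9% and 21.8% of divergent windows in replicates 1, 2 and 3, against 29.7%, 30.9% and 29.2% at promoters on 1 strand, a difference of -8.61 ± 1.06 percentage points (SD, n = 3, exact sign-flip p = 0.25). In windows of the same length centred 123 bp upstream of all 17242 autosomal protein-coding gene starts, GAGCGC stood in 3.77%, an E2F-like word in 6.81% and GAGAGA in 16.1%. The sign of the GAGCGC and E2F-like differences changed with the processing: with promoters of 250 bp upstream and 100 bp downstream they were 0.110 and -4.43 percentage points, and that of GAGAGA was -1.26.

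Pairs with a peak also differed from pairs without one. In windows on the midpoint between the starts, GAGCGC stood in 79 of 400 pairs with a peak (19.8%) and 52 of 1371 without (3.79%). The E2F-like words stood in 68 pairs with a peak (17%) and 100 without (7.29%), and GAGAGA in 73 pairs with a peak and 164 without. The CpG ratio was 1.52 and 1.14, and GC content 35.4% and 33.9%. These windows come from the genome and have no replicates, so they were not tested. The sets were not matched: pairs without a peak were wider, with a median of 526 bp against 380 bp. The words were also chosen with earlier results of these data known.

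GAGCGC went with strength. When the divergent peaks of each replicate were sorted by that replicate's rank and cut in 4 parts of equal size, from strongest to weakest, the word stood in 44.5% ± 0.853, 25.7% ± 2.01, 17.5% ± 3.50 and 18.2% ± 0.454 of windows (SD, n = 3). The strongest part exceeded the weakest by 26.3 ± 1.10 percentage points in 3 of 3 replicates (SD, n = 3, exact sign-flip p = 0.25). At promoters on 1 strand the same parts had 33.0% ± 2.70, 32.4% ± 1.44, 24.6% ± 2.98 and 21.4% ± 4.01. The E2F-like words showed no such order between divergent genes, with 24.8% ± 1.60, 25.5% ± 2.15, 22.4% ± 2.94 and 25.6% ± 3.05 from strongest to weakest. At promoters on 1 strand these words stood in 31.0% ± 1.64 of the strongest part and 19.7% ± 2.17 of the weakest, a difference of 11.3 ± 1.70 percentage points in 3 of 3 replicates (SD, n = 3, exact sign-flip p = 0.25). Whether the orders differ between the sets of peaks was not tested. Between divergent genes GAGAGA ran the other way, with 15.2% ± 0.857 in the strongest part and 24.9% ± 2.67 in the weakest (SD, n = 3, exact sign-flip p = 0.25). It did so at promoters on 1 strand too, with 23.7% ± 2.02 and 34.4% ± 5.13 (SD, n = 3, exact sign-flip p = 0.25).

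**Figure D5:**
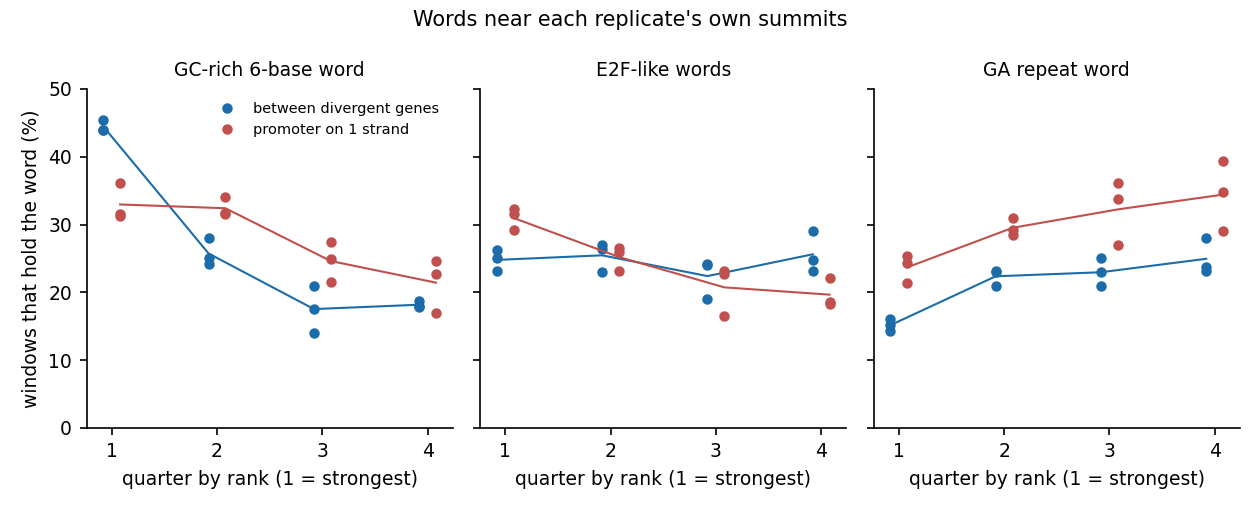
Share (%) of 201-bp windows on the replicate's own summits that hold GAGCGC (left), an E2F-like word (middle) or GAGAGA (right), in 4 equal parts from strongest (1) to weakest (4), for peaks between divergent genes (blue) and at promoters on 1 strand (red). Points are replicates and lines join their means; GAGCGC drops from 44.5% to 18.2% between divergent genes.

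The copies of GAGCGC were close to the summit. Their median distance from the replicate's own summit was 19.3 ± 2.36 bp, and 91.7% ± 1.46 of copies were within 50 bp, against a median of 31.7 ± 0.577 bp for the E2F-like words and 42.7 ± 6.01 bp for GAGAGA (SD, n = 3). Peaks at promoters on 1 strand had much the same medians, 20.3 ± 0.289 bp for GAGCGC, 32.7 ± 1.2 bp for the E2F-like words and 40.8 ± 2.08 bp for GAGAGA (SD, n = 3). GAGCGC pointed along the nearer gene in 53.5%, 53.0% and 54.5% of 101, 115 and 112 copies, so neither direction prevailed. By list, an E2F-like word stood at 8 of 20 peaks of cell cycle genes and GAGCGC at 7, while the 36 peaks of ribosomal protein genes had 4 and 7. The E2F-like share of the cell cycle list was not the highest. These words stood at 5 of 12 peaks of translation factor genes, 4 of 8 of nuclear pore genes and 3 of 6 of synMuv and DREAM genes. They stood at 2 of 20 peaks of respiratory chain genes and 0 of 8 of the RNA interference list. Proteasome peaks had GAGCGC at 6 of 12 and an E2F-like word at 2, in windows on the series-wide summit. GAGCGC stood at 105 of the 401 peaks in these windows and an E2F-like word at 98, and 228 peaks held neither GAGCGC nor an E2F-like word.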

How the data were processed

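LIN-15B ChIP-seq peaks of 3 replicates of 1 group were analysed. The deposited files are peak lists with background, 30000 peaks each, 1 per replicate and 1 from all replicates' alignments pooled, each made with a control, per the deposited records. Which peak caller and aligner were used is not given in the sources used here. Per peak, the strength, a signal value given by the authors' caller, has its own scale in each list and was used for ranks only. The deposited significance score (column 9) was used in 1 alternative. Peaks were nearly all of 1 width per list, 250 bp in replicate 1, 224 bp in replicate 2 and 300 bp in replicate 3, and 99.5% or more of summits are the peak's middle. Lists on ce10 were not used.

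Gene starts came from Ensembl release 115 on WBcel235, and sequence from the RefSeq copy of the same assembly. A series-wide peak was matched to the strongest overlapping peak of each replicate. Values on the replicates' own summits are given as mean ± SD and compared with an exact sign-flip permutation test, two-sided. Replicates are called biological in the labels. The rules were tested on simulated data. Python 3.11.15, pandas 2.3.3 and numpy 2.4.6 were used. Members, lists, words and tests were chosen with earlier results of these data known. The 23 gene lists are families of gene names, and patterns that also caught unrelated names were narrowed after the matches were read. Named genes are those of the 12 best mean ranks, the best 3 peaks of each list, the shortest and longest gaps, the edge of the rule, pairs listed on both sides, and the largest rank differences.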

Additional observations from a re-analysis of the deposited data

How the results depend on the processing

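No paired analysis was possible because the labels give a single group, so no replicate numbers link groups; the sets of peaks were compared within each library. Of 142 recomputed values under 13 alternatives, 94 stayed within the replicate spread or, for values without replicates, within 1.5 times. The number of peaks was 281 with the top 1000 and 446 with the top 3000, and 275 to 378 when 1 replicate was left out and both others were required. The narrower promoter, 250 bp up and 100 bp down, changed most: 189 peaks, 22% of strong promoter peaks, 10.7% of pairs with a peak, a nearer start at 82.7 bp, 88.0% of summits between the starts and 6 peaks at ribosomal protein genes instead of 36. Differences from promoters on 1 strand were then -2.42 points for GC content, 0.110 for GAGCGC (reversed), -4.43 for the E2F-like words (reversed) and -1.26 for GAGAGA. The E2F-like difference also reversed with the top 1000 (-0.556), the top 2000 of all 3 replicates (-0.172), 1000 bp upstream (-0.509) and 1 start per gene (-1.15), was 1.08 with the top 3000, and ran from -0.219 to 1.08 without a replicate. GAGCGC reversed in windows of 50 bp either side (0.802), and neither word's difference is therefore settled in sign. GAGAGA was lower between divergent genes under every alternative: -6.26 with the top 1000, -9.95 in all 3 replicates, -7.45 with summits within 100 bp, -7.17 with 1000 bp upstream, -7.16 with 1 start per gene, -6.28 in the shorter window and -12.3 to -6.97 without a replicate. The GC difference was -1.47 with 1000 bp upstream, -1.31 with 1 start per gene, -0.778 in the shorter window and -2.21 to -1.52 without a replicate. The CpG difference was 0.0363 with the top 1000, 0.0714 with the top 3000, 0.0736 by the score column, 0.0415 in the shorter window and 0.0548 to 0.0819 without a replicate. The nearer start lay at 124 bp with the top 1000 and by the score column, 126 bp in all 3 replicates, 125 bp with summits within 100 bp, 139 bp with 1000 bp upstream and 125 to 126 bp without a replicate. Summits between the starts were 93.0% with the top 1000, 93.0% in all 3 replicates and 91.2% to 93.0% without a replicate. The cause of these shifts was not tested, and the depth of the libraries is unknown.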

Other observations

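Longer words were looked at after the data were seen and are given as values with no test. On either strand, CGTAAATC stood in 11% ± 0.0282 of windows between divergent genes and in 6.67% ± 0.0490 at promoters on 1 strand (SD, n = 3), and in 25 of 1371 midpoints of pairs without a peak (1.82%). It lies in the printed stretches of rpl-20 and rpl-28. GCGAGACC stood in 10.1% ± 0.670 and 5.76% ± 0.0957 of these windows (SD, n = 3), and in 32 of the 1371 midpoints (2.33%). Among the 6-mers, runs of A and T gave the largest excess over promoters on 1 strand, led by TAAAAA with 63.7% ± 1.55 against 49.5% ± 1.07, and ACCGTA stood in 20.2% ± 0.472 against 11% ± 0.379 (SD, n = 3).

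Genes beside the peaks had a median length of 2040.5 bp, against 1723.5 bp for genes of pairs without a peak. An annotated non-coding gene lay wholly between the starts at 44 of the peaks. Pairs without a peak were not counted in this way, so whether this is many or few is not known here.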
